A study of Arabidopsis thaliana with 24 samples.

Results

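Floral identity genes encode the transcription factors that turn a shoot meristem into a flower and give each floral organ its kind. Their RNA was followed here in Arabidopsis thaliana seedlings of 14 days, an age at which most of the plant is root, hypocotyl and leaf. The genes were named by locus, with earlier results of these data known: AP1 (AT1G69120), CAL (AT1G26310), LFY (AT5G61850), AP3 (AT3G54340), PI (AT5G20240), AG (AT4G18960) and SEP1 to SEP4 (AT5G15800, AT3G02310, AT1G24260 and AT2G03710). They are 10 of the 27655 loci in the deposited count files, and the counts of all transcript models of a locus were summed. The study asked how flowering is controlled in long days outdoors, and sampled 4 growth settings at zeitgeber time (ZT) 4 and 16, with 3 libraries in each of the 8 groups. Lab LD was a standard indoor long day. In LD+FR+TEMP, also indoors, a weak far-red diode was added to white light so that red no longer exceeded far-red, and a programme made the temperature rise and fall over the day. Natural 2013 and natural 2014 were open cages outdoors in June 2013 and July 2014, under a garden blanket that dimmed the sunlight. All seedlings grew on soil and were taken whole, the column names of the deposited table mark all 24 libraries "wt", no other field used here names a genotype, transgene or added agent, and lab LD and LD+FR+TEMP were the indoor groups throughout. The labels do not say whether the replicates were separate plantings, so each p-value reflects only how these samples vary, and that variation may be technical.

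In the usual picture of the Arabidopsis flower, LFY with AP1 and CAL makes a young meristem floral after the leaf signal FT has reached the shoot apex. AP1 then specifies sepals and, with AP3 and PI, petals, while AP3, PI and AG specify stamens and AG alone specifies carpels. The SEP proteins are the shared partners that let the other MADS-domain factors assemble into complexes, and SEP3 is also known to be switched on early in floral commitment. These roles are background and were not tested by the libraries.

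LFY protein binds DNA at sites with a short core, and MADS-domain proteins bind the CArG box, so the 250 bases before the annotated start of each gene were searched on both strands for 2 forms of the LFY core, CCANTGT and CCANTGG. The CArG box was searched as well. Sequence and gene starts came from RefSeq, assembly TAIR10.1. The CArG box was in 0 of these 10 windows and in 2.52% of 27561 windows of all genes. CCANTGT was in the windows of AP1 and SEP2 and in 7.45% of all windows, and CCANTGG was in that of AP1 and in 3.05% of all. The 2 windows are printed because AP1 and SEP2 were among the genes most different between outdoor and indoor libraries, and because they alone of the 10 held a match. Both lie on the minus strand of their chromosome, AP1 at chr1:25986350-25986599 and SEP2 at chr3:467152-467401, and are given 5′ to 3′ on the gene's strand with the matches in capitals.
AP1: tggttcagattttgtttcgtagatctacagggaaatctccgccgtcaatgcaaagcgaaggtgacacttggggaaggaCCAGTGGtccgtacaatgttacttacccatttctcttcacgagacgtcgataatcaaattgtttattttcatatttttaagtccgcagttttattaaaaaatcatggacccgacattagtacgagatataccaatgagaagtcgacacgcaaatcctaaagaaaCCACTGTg
SEP2: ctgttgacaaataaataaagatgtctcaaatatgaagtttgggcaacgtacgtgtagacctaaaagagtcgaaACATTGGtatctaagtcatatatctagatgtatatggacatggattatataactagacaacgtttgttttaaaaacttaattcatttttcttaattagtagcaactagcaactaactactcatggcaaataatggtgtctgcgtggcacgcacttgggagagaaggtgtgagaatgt
In AP1, CCAGTGG stood 172 bases and CCACTGT 8 bases before the start, and in SEP2 the match, read on the other strand, stood 177 bases before it. A match is a description of the letters and says nothing of whether a protein binds there.

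Total counts ran from 12069812 to 16089156 in the 12 indoor libraries and from 6543615 to 10711582 in the 12 outdoor ones, so every outdoor library was shallower than every indoor library. Levels are in CPM, counts scaled to the same library size after TMM normalization, and differences are log2 fold changes ± standard error (SE) from edgeR's quasi-likelihood fit, with p-values adjusted after Benjamini and Hochberg over the 18797 loci tested. The method reads a tag near the 3′ end, and CPM is compared only within a gene. Leaf, root and shoot apex markers were present in all libraries. Counts of these genes were low: AP1 had 65 counts, AP3 had 88 and CAL had 21 over the 24 libraries, against 1699 for SEP4. An interval of a ratio covers counting error only. Replicate 3 of natural 2013 at ZT4 and replicate 3 of natural 2014 at ZT16 held more of these genes than the other libraries of their groups, and results that rest on them are given with and without them.

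A total of 7 of the 10 genes passed the filter on low counts, which asked for about 0.878 CPM in 3 libraries. SEP4 and PI passed it also on indoor libraries alone. SEP1, SEP2, SEP3, AP1 and AP3 passed it only through outdoor libraries, so they had to be higher outdoors to be tested, and the counts of tested genes called below lend no support by themselves. CAL, LFY and AG were not tested and are given by their counts.

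**Figure D1:**
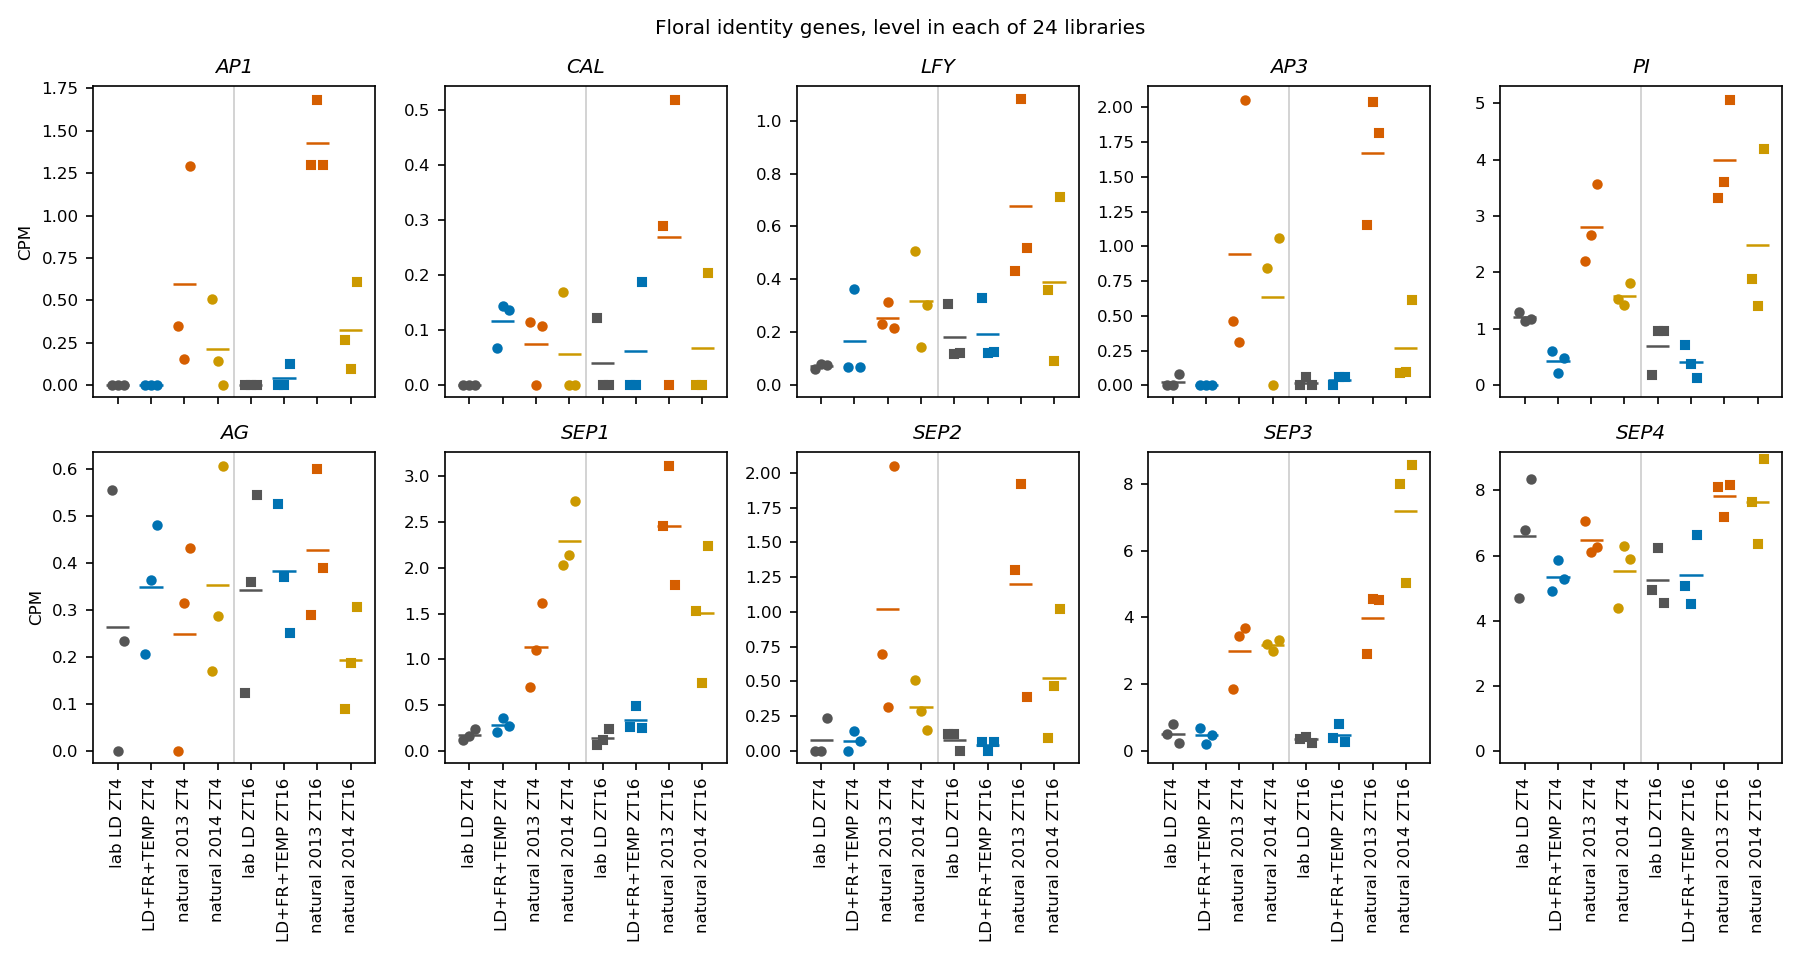
Level of each gene (CPM, vertical axis, own scale per panel) in each of the 24 libraries, by group along the horizontal axis, with ZT4 as circles left of the grey line and ZT16 as squares right of it; bars are group means. SEP1, SEP3 and PI stand higher in all outdoor libraries than in all indoor ones, AP1 and AP3 are at or near 0 indoors, and AG and SEP4 show no such split.

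AP1, which gives meristems their floral identity and specifies sepals and petals, was nearly absent indoors. It had 2 counts in 1 of the 12 indoor libraries (replicate 3 of LD+FR+TEMP at ZT16, 0.125 CPM) and 0 in the other 11. Outdoors it had 63 counts. In natural 2013 its replicates 1, 2 and 3 held 3, 1 and 12 counts at ZT4 (0.347, 0.157 and 1.29 CPM) and 9, 14 and 10 at ZT16 (1.30, 1.68 and 1.30 CPM). In natural 2014 they held 3, 1 and 0 counts at ZT4 (0.507, 0.143 and 0 CPM) and 3, 1 and 6 at ZT16 (0.270, 0.0934 and 0.611 CPM). The natural 2013 ZT16 libraries were the highest group, and above all 3 libraries of each other group. With lab LD at a floor of 3 counts over the group, AP1 was at least 9.06-fold higher in natural 2013 at ZT4, with an adjusted p of 0.00358, and at least 23.8-fold higher at ZT16 (adjusted p = 0.000126). In natural 2014 it was at least 5.23-fold higher at ZT16 (adjusted p = 0.0133), and at ZT4 at least 2.82-fold with an adjusted p of 0.0617. Several of these calls rested on single libraries. Without natural 2013 ZT4 replicate 3 the first had an adjusted p of 0.0549, and without natural 2014 ZT16 replicate 3 the ZT16 value of 2014 had 0.074. AP1 at ZT4 of 2014 passed without its own replicate 3 (adjusted p = 0.0389) or without natural 2013 ZT4 replicate 3 (0.0434). Over all libraries, the outdoor level of AP1 was 58.0 times the indoor one (95% exact interval 15.4 to 490).

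CAL, the close relative of AP1 with an overlapping role, did not separate the settings at this depth. It had 11 counts outdoors and 10 indoors, a ratio of 2.03 with an interval of 0.781 to 5.32, and no library held more than 4. Only 7 stretches of 50 bases are shared between the AP1 and CAL transcripts (0.402% of those in AP1).

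LFY, which switches on AP1 and the organ identity genes, was found in all 24 libraries at a low level. Indoor libraries ran from 0.0616 to 0.362 CPM with a median of 0.120, and outdoor ones from 0.0934 to 1.08 CPM with a median of 0.337. The ranges overlapped. The pooled outdoor level was 2.63 times the indoor one (40 against 28 counts, interval 1.58 to 4.43), and the highest group was natural 2013 ZT16, at 0.433, 1.08 and 0.519 CPM. Only a fit with no filter on low counts tests LFY, among 24213 loci, and there it rose in natural 2013 at ZT16 over lab LD (1.86 ± 0.67, adjusted p = 0.0441) and in no other comparison of settings or times.

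AP3, one of the pair of petal and stamen genes, was likewise nearly absent indoors. Its 12 indoor libraries held 4 counts in all, with 0 in 8 of them and at most 1 in any. Outdoors there were 84 counts. Replicates 1 to 3 of natural 2013 held 4, 2 and 19 counts at ZT4 (0.462, 0.313 and 2.05 CPM) and 8, 17 and 14 at ZT16 (1.16, 2.04 and 1.81 CPM). Those of natural 2014 held 5, 0 and 7 at ZT4 (0.845, 0 and 1.06 CPM) and 1, 1 and 6 at ZT16 (0.0899, 0.0934 and 0.611 CPM). The ZT16 libraries of 2013 thus lay above those of 2014, while at ZT4 both years overlapped. Against lab LD, the pooled AP3 level was 42.5 times as high in natural 2013 at ZT4 (25 counts against 1, interval 6.95 to 1744, adjusted p = 0.00221) and 84.2 times at ZT16 (39 against 1, interval 14.3 to 3412, adjusted p = 0.000135). In natural 2014 it was 25.4 times at ZT4 (12 against 1, interval 3.75 to 1085, adjusted p = 0.0111), and 12.5 times at ZT16 (8 against 1, interval 1.68 to 557), where the adjusted p was 0.0843 with edgeR and 0.0464 with DESeq2. The ZT4 call of 2013 had an adjusted p of 0.0672 without natural 2013 ZT4 replicate 3, and that of 2014 had 0.0835 without natural 2014 ZT4 replicate 3.

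PI encodes the partner with which AP3 binds DNA, yet unlike AP3 it was present indoors in every library. In lab LD it stood at 1.29, 1.145 and 1.17 CPM at ZT4 and 0.184, 0.957 and 0.967 CPM at ZT16. LD+FR+TEMP held 0.615, 0.217 and 0.480 CPM at ZT4 and 0.722, 0.370 and 0.125 CPM at ZT16. Natural 2013 held 2.20, 2.66 and 3.56 CPM at ZT4 and 3.32, 3.60 and 5.06 CPM at ZT16. Natural 2014 held 1.52, 1.43 and 1.82 CPM at ZT4 and 1.89, 1.40 and 4.18 CPM at ZT16. Every outdoor library lay above every indoor one, although the lowest outdoor value (1.40 CPM) was close to the highest indoor value (1.29 CPM). PI rose over lab LD in natural 2013 at ZT4 (1.22 ± 0.43, adjusted p = 0.0347), at ZT16 (2.49 ± 0.43, adjusted p = 0.000127) and in natural 2014 at ZT16 (1.79 ± 0.44, adjusted p = 0.00268). At ZT4 of 2014 the difference was 0.39 ± 0.49 (adjusted p = 0.543). The ZT4 call of 2013 was lost with limma-trend and without replicate 2 or 3 of natural 2013 or any lab LD library at that time (adjusted p from 0.0546 to 0.163). The ZT16 call of 2014 had an adjusted p of 0.055 without natural 2014 ZT16 replicate 3. PI was also set against lab LD in LD+FR+TEMP. At ZT4 the libraries did not overlap and the difference was -1.43 ± 0.52 with an adjusted p of 0.0608, while DESeq2 gave 0.0391 and a fit of these groups alone gave 0.0428. Leaving out a ZT16 library outside the comparison (replicate 3 of natural 2014, replicate 3 of LD+FR+TEMP or replicate 1 of lab LD) also brought it below 0.05 (0.0401, 0.0494 and 0.0362).

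AG, which specifies stamens and carpels and ends the growth of the floral meristem, did not separate the settings. Indoor libraries ran from 0 to 0.555 CPM and outdoor ones from 0 to 0.606 CPM, with 62 and 29 counts. The ratio of outdoors to indoors was 0.862, with an interval of 0.534 to 1.36. Group means lay between 0.194 ± 0.108 CPM (natural 2014 ZT16) and 0.426 ± 0.159 CPM (natural 2013 ZT16; SD, n = 3), and the libraries of these extremes overlapped.

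SEP3, the shared partner that joins the other floral MADS-domain factors in complexes, was separated between indoors and outdoors without overlap. Lab LD stood at 0.493, 0.818 and 0.234 CPM at ZT4 and 0.367, 0.419 and 0.242 CPM at ZT16. LD+FR+TEMP stood at 0.683, 0.217 and 0.480 CPM at ZT4 and 0.394, 0.801 and 0.251 CPM at ZT16. Outdoors, natural 2013 held 1.85, 3.45 and 3.67 CPM at ZT4 and 2.89, 4.56 and 4.54 CPM at ZT16. Natural 2014 held 3.21, 3.00 and 3.33 CPM at ZT4 and 8.001, 5.04 and 8.56 CPM at ZT16. The lowest outdoor library (1.85 CPM) lay above the highest indoor one (0.818 CPM), with 454 counts outdoors and 81 indoors. Natural 2014 ZT16 was the highest group and overlapped no other, the other 3 outdoor groups overlapped each other, and so did the 4 indoor groups. At ZT4, SEP3 rose over lab LD by 2.52 ± 0.41 in natural 2013 (adjusted p = 5.13e-05) and by 2.61 ± 0.42 in natural 2014 (adjusted p = 1.35e-05). At ZT16 it rose by 3.51 ± 0.41 and 4.35 ± 0.37 (adjusted p = 7e-07 and 4.24e-09).

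SEP1 showed a similar split at a lower level. Lab LD held 0.123, 0.164 and 0.234 CPM at ZT4 and 0.0612, 0.120 and 0.242 CPM at ZT16. LD+FR+TEMP held 0.205, 0.362 and 0.274 CPM at ZT4 and 0.263, 0.493 and 0.251 CPM at ZT16. Natural 2013 held 0.694, 1.10 and 1.62 CPM at ZT4 and 2.46, 3.12 and 1.81 CPM at ZT16, and natural 2014 held 2.03, 2.14 and 2.73 CPM and 1.53, 0.747 and 2.24 CPM. No outdoor library overlapped an indoor one. SEP1 rose over lab LD in natural 2013 (2.68 ± 0.54, adjusted p = 0.000559, and 4.03 ± 0.47, adjusted p = 8.95e-07, at ZT4 and ZT16) and in natural 2014 (3.68 ± 0.50, adjusted p = 1.18e-06, and 3.31 ± 0.49, adjusted p = 1.2e-05). In TAIR10.1 the last 100 bases of SEP1, chr5:5151334-5151433, overlap the end of AT5G15790 on the other strand, and 29.4% of the 50-base stretches of SEP1 transcripts also occur in AT5G15790 or in AT5G02455, a gene that RefSeq places antisense within SEP1. AT5G02455 was not analysed here, although the short overlap with AT5G15790 can hold only a small part of the shared stretches. That overlap lies at the 3′ end of SEP1, however, near which the method reads its tag. The part of the stretches therefore does not give the part of the reads. Nothing says whether counting used the strand, and reads of SEP1 and of either neighbour may not have been told apart. AT5G15790 had group means of 5.46 ± 0.581 to 8.41 ± 1.11 CPM. It was above lab LD in natural 2013 at ZT4 (0.55 ± 0.17, adjusted p = 0.0178, lost in a fit of those groups alone and without natural 2013 ZT4 replicate 2 or lab LD ZT4 replicate 2 or 3, adjusted p from 0.0502 to 0.084). It differed by -0.06 ± 0.19, 0.08 ± 0.17 and -0.01 ± 0.16 in the other comparisons of an outdoor group with lab LD.

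SEP2, which acts redundantly with SEP1 and SEP3, was sparser and more uneven. The 12 indoor libraries held 12 counts in all, with 5 libraries at 0 and at most 3 in any. Replicates 1 to 3 of natural 2013 held 6, 2 and 19 counts at ZT4 (0.694, 0.313 and 2.05 CPM) and 9, 16 and 3 at ZT16 (1.30, 1.92 and 0.389 CPM). Natural 2014 held 3, 2 and 1 counts at ZT4 (0.507, 0.286 and 0.151 CPM) and 1, 5 and 10 at ZT16 (0.0899, 0.467 and 1.02 CPM). The lowest outdoor library lay within the indoor range, whose highest value was 0.234 CPM. SEP2 was 15.3 times as high in natural 2013 as in lab LD at ZT4 (27 against 3 counts, interval 4.70 to 78.7, adjusted p = 0.0046) and rose at ZT16 by 3.74 ± 0.88 (adjusted p = 0.0023). In natural 2014 the ZT4 ratio was 4.23 (6 against 3 counts, interval 0.903 to 26.1, adjusted p = 0.24), and at ZT16 the difference of 2.51 ± 0.99 passed narrowly (adjusted p = 0.0498). That call was lost with RLE size factors, with limma-trend, without natural 2014 ZT16 replicate 2 or 3, without any lab LD ZT16 library and without several libraries outside the comparison (adjusted p from 0.0509 to 0.323). The ZT4 call of 2013 had an adjusted p of 0.101 without natural 2013 ZT4 replicate 3.

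SEP4, the family member known to be expressed also in vegetative tissue, was present everywhere and moved little. Its indoor libraries ran from 4.50 to 8.35 CPM (median 5.17) and its outdoor libraries from 4.39 to 8.97 CPM (median 6.70). At ZT4 it differed from lab LD by -0.01 ± 0.20 in natural 2013 and by -0.23 ± 0.21 in natural 2014 (adjusted p = 0.971 and 0.386). At ZT16 it rose by 0.57 ± 0.20 (adjusted p = 0.0295) and 0.54 ± 0.19 (adjusted p = 0.0273), from lab LD libraries of 4.96, 6.22 and 4.53 CPM to 8.09, 7.20 and 8.17 CPM in 2013 and 7.64, 6.35 and 8.97 CPM in 2014. Both calls were lost without replicate 1 or 3 of the outdoor group or of lab LD at ZT16 (adjusted p from 0.0614 to 0.142), and that of 2014 in libraries thinned to the smallest (0.106).

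**Figure D2:**
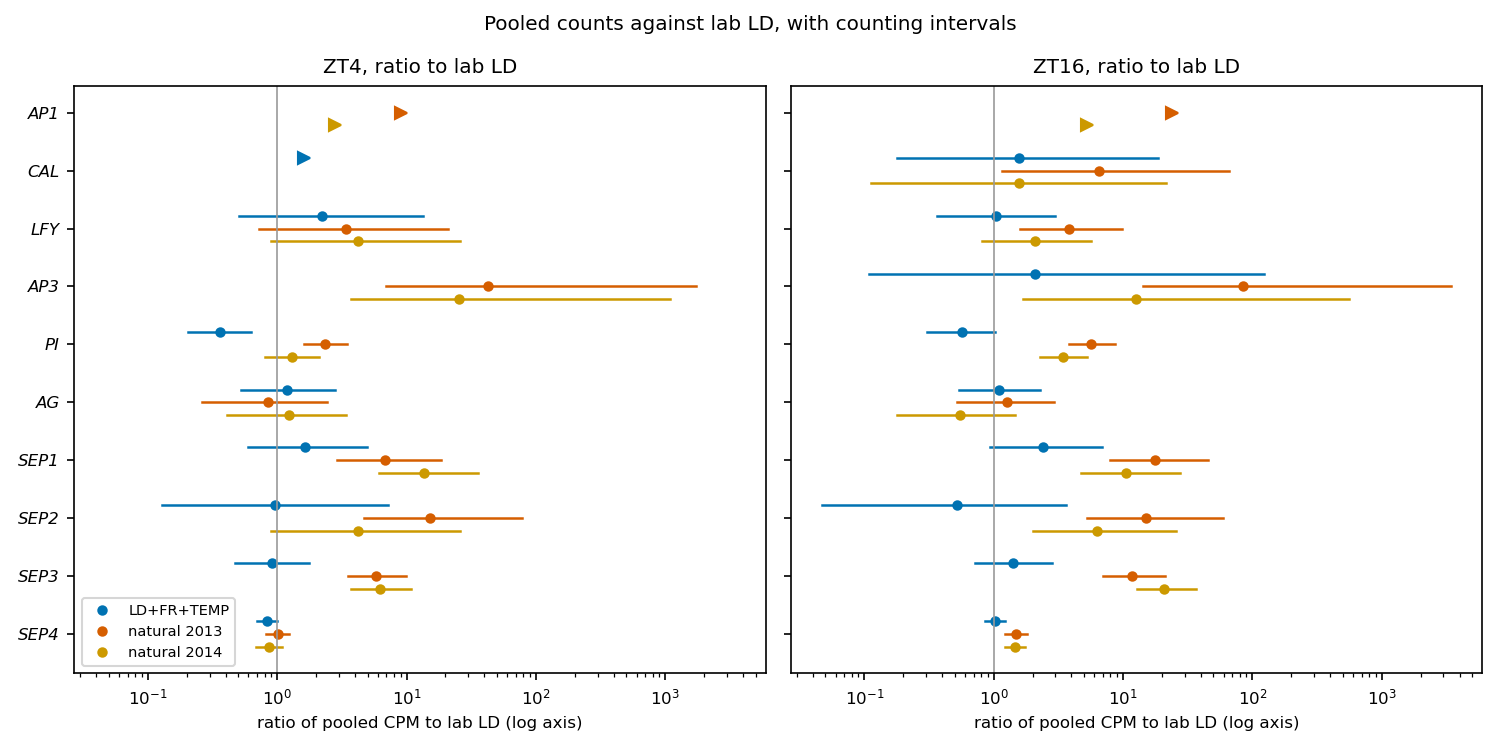
Ratio of the pooled CPM of each setting to lab LD (horizontal log axis) for each gene (vertical axis) at ZT4 (left) and ZT16 (right); lines are 95% exact intervals for counting error, and arrowheads are lower bounds where lab LD held 0 counts. Both outdoor years lie right of the line at a ratio of 1 for SEP1 and SEP3 at both times, while SEP4 and AG stay near it.

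Set against the share of all tested loci, the outdoor comparisons with lab LD gave the following counts. In natural 2013, 6 of the 7 tested genes were higher and 0 lower at ZT4, where 14.7% of tested loci were higher (29% in either direction), and 7 were higher at ZT16, where 14.8% of loci were (29.1% in either direction). In natural 2014, 3 were higher at ZT4 and 6 at ZT16, where 22.1% and 18.5% of loci were (44.3% and 35.8% in either direction). The median difference of the 7 was 2.68 and 3.74 in 2013 and 2.61 and 3.10 in 2014, while the median over all tested loci was between -0.05 and -0.01. Since 5 of the 7 were tested only because of their outdoor level, these shares describe the genes and do not test them. In bulk seedlings, fewer cells that express a gene and less RNA per cell cannot be told apart.

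Adding far-red light and a temperature cycle indoors moved none of the 7 tested genes past the threshold. Of these, SEP1, SEP2, SEP3, AP1 and AP3 passed the filter on low counts only through outdoor libraries. At ZT4, in LD+FR+TEMP and lab LD in that order, AP1 held 0 and 0 counts, AP3 0 and 1, and SEP2 3 and 3. Counts this low cannot show a fall or a modest rise, so a lack of calls does not mean a lack of response. In LD+FR+TEMP against lab LD, edgeR called 0 of the 7 at ZT4, where 16.9% of all loci were called (8.34% higher and 8.6% lower), with 1 below an unadjusted p of 0.05 (PI), 1 called by DESeq2 and 0 by limma-trend. At ZT16 it also called 0, where 2.65% of loci were called (1.65% higher), with 0 below an unadjusted p of 0.05 and 0 by DESeq2 or limma-trend. SEP1 at ZT16 was the gene nearest to a rise there, with no overlap between the libraries (1.196 ± 0.60, adjusted p = 0.297). Pooled over both times, SEP1 held 28 counts in LD+FR+TEMP and 14 in lab LD (ratio 2.01, interval 1.02 to 4.13), and PI held 38 and 85 (ratio 0.449, interval 0.298 to 0.666). SEP3 held 43 and 38 counts (ratio 1.137, interval 0.718 to 1.81).

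Compared directly with LD+FR+TEMP, seedlings grown outdoors (the mean of both years) had more RNA of the same tested genes. Here 6 of the 7 were higher at ZT4, where 15% of loci were higher (29.8% either way), and 7 at ZT16, where 14.4% were (30.8% either way). SEP1, SEP2, SEP3, AP1 and AP3 were tested only because of their outdoor level, so these counts describe the genes and do not test them. At ZT4 and ZT16, in that order, SEP3 was higher by 2.70 ± 0.37 (adjusted p = 4.86e-06) and 3.44 ± 0.34 (adjusted p = 4.29e-08), SEP1 by 2.50 ± 0.42 (adjusted p = 5.98e-05) and 2.47 ± 0.38 (adjusted p = 1.82e-05), and PI by 2.24 ± 0.47 (adjusted p = 0.000714) and 2.93 ± 0.44 (adjusted p = 1.41e-05). AP1 had 0 counts in LD+FR+TEMP at ZT4 and was at least 6.55-fold higher outdoors, and AP3, also at 0, at least 12.1-fold. At ZT16 the ratios were 18.7 for AP1 (43 against 2 counts, interval 4.86 to 159), 20.4 for AP3 (47 against 2, interval 5.34 to 173) and 19.1 for SEP2 (44 against 2, interval 4.98 to 163). SEP4 differed by 0.17 ± 0.18 at ZT4 (adjusted p = 0.516) and rose by 0.52 ± 0.17 at ZT16 (adjusted p = 0.0204). Some of these calls fell to single libraries. AP1 at ZT4 had an adjusted p of 0.0919 without natural 2014 ZT4 replicate 1, AP3 at ZT16 had 0.0939 without natural 2014 ZT16 replicate 3, and SEP4 at ZT16 had 0.0501 to 0.114 without natural 2014 replicate 3 or LD+FR+TEMP replicate 1 or 2 and 0.231 in thinned libraries. SEP2 at ZT4 (33 against 3 counts, ratio 10.8, interval 3.39 to 55.1, adjusted p = 0.0335) was lost without natural 2013 replicate 3, natural 2014 replicate 1 or 2, or LD+FR+TEMP replicate 1 or 3 (adjusted p from 0.0549 to 0.117). These comparisons share their outdoor libraries with those against lab LD.

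Between the outdoor years few of the tested genes passed the threshold. The median difference of the 7 in 2014 against 2013 was -0.69 at ZT4 and -0.72 at ZT16. Over all tested loci it was 0.0009 and 0.006. SEP2 (-1.78 ± 0.88 and -1.23 ± 0.71) and PI (-0.83 ± 0.46 and -0.70 ± 0.39) were lower in 2014 at both times without passing. SEP1 was higher at ZT4 and lower at ZT16 (-0.72 ± 0.35), and SEP3 was lower at neither time (0.10 ± 0.35 at ZT4). At ZT4, 0 of 7 were called, where 31% of all loci were, with 1 below an unadjusted p of 0.05 (SEP1, 1.00 ± 0.40 in 2014 against 2013, adjusted p = 0.0577), 0 by DESeq2 and 1 by limma-trend. SEP1 passed without natural 2013 ZT4 replicate 3 (adjusted p = 0.0335) or natural 2014 ZT16 replicate 2 (0.0428). At ZT16, AP3 fell by 2.68 on the log2 scale (-2.68 ± 0.75, adjusted p = 0.0378) and was the only gene of the 7 called, where 2.33% of loci were lower (5.16% either way). AP1 stood lower in 2014 as well (-2.14 ± 0.69, adjusted p = 0.0789) and SEP3 higher (0.84 ± 0.29, adjusted p = 0.0984), and a fit of these 2 groups alone put both past the threshold (adjusted p = 0.0173 and 0.0452). For AP3 the ZT16 libraries of the years did not overlap, and its call was lost without any 1 of the natural 2013 ZT16 libraries or without natural 2014 ZT16 replicate 1 or 2 (adjusted p from 0.0573 to 0.164).

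Between the times of day no tested gene passed the threshold indoors, and a single gene did in each outdoor year. Indoors, AP1, AP3 and SEP2 held too few counts at either time to show a fall or a modest rise. The same holds for SEP1 in lab LD, with 7 counts at ZT4 and 7 at ZT16 (-0.25 ± 0.71). From ZT4 to ZT16, 0 of the 7 were called in lab LD, where 21.9% of loci were, and 0 in LD+FR+TEMP, where 23.5% were, by edgeR, with 0 below an unadjusted p of 0.05 and 0 by DESeq2 or limma-trend in either. In natural 2013, SEP1 rose (1.10 ± 0.38, adjusted p = 0.0271), where 17.6% of loci rose and 17.8% fell (35.5% either way). In natural 2014, SEP3 rose (1.18 ± 0.31, adjusted p = 0.00289), where 23.2% of loci rose and 22.5% fell (45.7% either way), and SEP1 differed by -0.62 ± 0.37 (adjusted p = 0.175). The call for SEP1 was lost with DESeq2, in thinned libraries, and without replicate 1 or 2 of natural 2013 at either time (adjusted p from 0.0546 to 0.151). AP1 and AP3 of natural 2013 passed the threshold between the times only without its ZT4 replicate 3 (2.39, adjusted p = 0.0333, and 2.06, adjusted p = 0.0487). Tested as an interaction with lab LD, the change from ZT4 to ZT16 was larger in natural 2014 for SEP3 (1.73 ± 0.62, adjusted p = 0.0353) and SEP4 (0.78 ± 0.28, adjusted p = 0.0389), where 14.9% of loci had a larger change (30.3% either way). For natural 2013, 0 of 7 were called (17.4% of loci, 8.18% with a larger and 9.22% with a smaller change), with 2 below an unadjusted p of 0.05 and 0 by DESeq2 or limma-trend. For LD+FR+TEMP, 0 of 7 were called (4.24% of loci, 2.15% larger and 2.09% smaller), with 0 below an unadjusted p of 0.05 and 0 by DESeq2 or limma-trend. AP1 held 0 counts in lab LD at both times, so its interactions with lab LD could not be estimated. In lab LD at ZT4 and ZT16, AP3 held 1 and 1 counts and SEP2 3 and 4, too few for these tests to show a modest difference. The lack of an interaction call for these genes is therefore no sign of an equal change.

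A few outdoor libraries carried much of the sparse genes. In natural 2013 at ZT4, replicate 3 held most counts of AP1, AP3 and SEP2, and the summed level of the 9 genes other than SEP4 was the highest of the 3 there, against 6.59 and 8.62 CPM in replicates 1 and 2. That library also held the most RNA of STM, a gene that keeps the shoot meristem undifferentiated, at 7.55 CPM against 3.01 and 3.92 CPM. STM was picked after its values were seen. The 9 tested apex markers had a median difference from lab LD of -0.05 in natural 2013 at ZT4. Replicate 3 had summed shoot apex markers of 107.9 CPM against 100.9 and 88.1 CPM, and summed root markers of 349 CPM against 471 and 433 CPM. The part of these markers in the result was not tested. Without replicate 3, 2 of the 7 genes (SEP1 and SEP3) were called in natural 2013 against lab LD at ZT4. In natural 2014 at ZT16, replicate 3 held 18.4 CPM against 12.3 and 8.12 CPM, and without it 2 of the 7 (SEP1 and SEP3) were called against lab LD.

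Upstream of these genes, the list of 12 integrators (FT, its relative TSF, their partners FD and FDP, the MADS-box genes SOC1, AGL24 and FUL, and 5 SPL genes) held more genes called higher than lower in each comparison of outdoors with an indoor group. In natural 2014 against natural 2013, 1 was higher and 5 lower at ZT4, and 0 higher and 2 lower at ZT16. Of all loci, 31% and 5.16% were called either way between the years. Against lab LD, 7 of 12 were higher and 0 lower at ZT4 and again at ZT16 in natural 2013 (median 0.63 and 0.82), and 5 higher and 2 lower at ZT4 and 7 and 1 at ZT16 in natural 2014 (median 0.48 and 0.67). Of all tested loci, 14.7% and 14.8% were higher in 2013 and 22.1% and 18.5% in 2014, at ZT4 and ZT16. In natural 2013 at ZT16, SPL3, a microRNA156 target that promotes flowering, rose by 2.81 ± 0.21 (adjusted p = 1.58e-09) and SOC1, which relays FT and age signals in the meristem, by 2.16 ± 0.17 (adjusted p = 1.79e-09). In LD+FR+TEMP against lab LD, 1 was higher and 2 lower at ZT4 and 1 higher and 0 lower at ZT16. Of all loci, 16.9% and 2.65% were called either way there. Outdoors against LD+FR+TEMP, 5 were higher and 0 lower at ZT4 (median 0.64) and 9 and 0 at ZT16 (median 1.06), where 15% and 14.4% of loci were higher. At ZT4, FT stood at 19.96 ± 3.98 CPM in natural 2013 and 25.2 ± 7.29 CPM in natural 2014, above lab LD by 3.43 ± 0.26 and 3.78 ± 0.26 (adjusted p = 6.74e-10 and 1.2e-11), where SEP3 and SEP1 were higher as well. FT was 1.84 ± 0.197 CPM in lab LD at ZT4 and 6.96 ± 1.87 CPM in LD+FR+TEMP (1.92 ± 0.28, adjusted p = 2.57e-05). SEP3 and PI were not called as higher in LD+FR+TEMP at ZT4. AP1 and AP3 held 0 to 1 counts in each of these groups, too few to show a modest rise. Any part of FT in the levels of the floral genes was not tested. At ZT16, FT did not pass between either outdoor year and lab LD (0.54 ± 0.21 and 0.15 ± 0.21, adjusted p = 0.0533 and 0.623), at 10.7 ± 0.465 CPM in lab LD, 15.6 ± 1.32 in 2013 and 11.9 ± 3.79 in 2014, where SEP3 rose by 3.51 and 4.35. SOC1 rose in both years at both times over lab LD, by 0.68 ± 0.16 and 0.57 ± 0.16 at ZT4 (adjusted p = 0.00251 and 0.00579) and by 2.16 ± 0.17 and 1.61 ± 0.16 at ZT16 (the latter adjusted p = 6.11e-08). The ZT4 call of SOC1 in 2014 was lost without natural 2014 ZT4 replicate 3 (adjusted p = 0.0733).

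**Figure D3:**
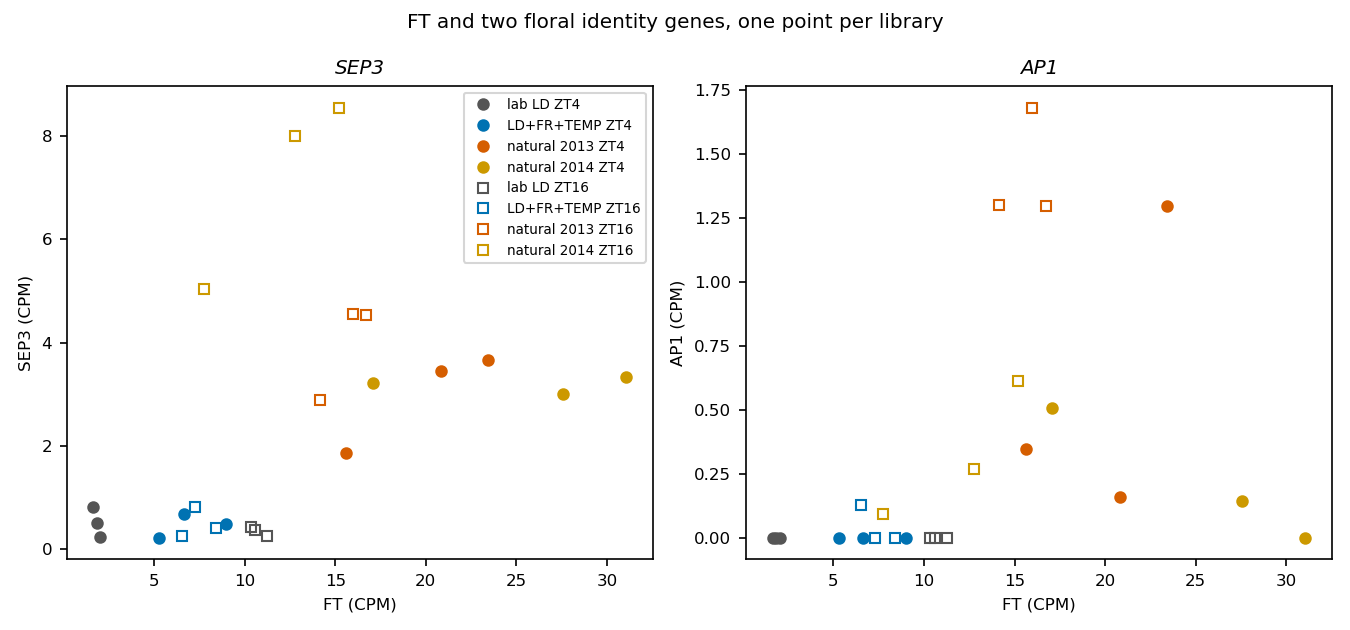
Level of FT (CPM, horizontal axis) against SEP3 (left) and AP1 (right) (CPM, vertical axis), 1 point per library, with ZT4 filled and ZT16 open. The outdoor ZT4 libraries have FT between 15.6 and 31.1 CPM and SEP3 between 1.85 and 3.67 CPM. The lab LD ZT16 libraries have FT between 10.3 and 11.2 CPM with SEP3 at most 0.419 CPM. The natural 2014 ZT16 libraries have a mean FT of 11.9 ± 3.79 CPM (SD) and SEP3 between 5.04 and 8.56 CPM. Replicate 2 of that group has FT at 7.75 CPM and the lowest SEP3 of the group. A tie between FT and these genes was not tested.

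Among 11 partners of the floral meristem genes, of which 8 were tested, 3 were higher and 1 lower than in lab LD in natural 2013 at ZT4, where 29% of all loci were called either way. At ZT16 of 2013, 2 were higher and 0 lower (29.1% of loci either way), in natural 2014 1 and 1 at ZT4 (44.3%) and 1 and 0 at ZT16 (35.8%), and 0 were called between the indoor settings. PNY, a homeodomain factor needed for the shoot to answer floral signals, rose at ZT16 in both years (0.69 ± 0.13, adjusted p = 0.0003, and 0.83 ± 0.13, adjusted p = 1.49e-05). TFL1, which keeps the shoot apex from becoming a flower, rose in natural 2013 at ZT16 (1.57 ± 0.41, adjusted p = 0.00547), the group in which AP1 and AP3 were highest. ATH1, a homeodomain gene of the apex, fell at ZT4 (-0.66 ± 0.13, adjusted p = 0.000379, and -1.50 ± 0.14, adjusted p = 5.04e-09). UFO, the F-box partner of LFY in switching on AP3, had 16 counts over the 24 libraries and was not tested. A list of 17 floral repressors and chromatin factors, all tested, mixes genes of unlike action, among them ATX1, a homologue of trithorax. Of these, 3 were higher and 2 lower in natural 2013 at ZT4, and 2 and 2 at ZT16. In natural 2014, 4 and 5 were at ZT4, and 2 and 1 at ZT16. Beside these stood 29%, 29.1%, 44.3% and 35.8% of all loci called either way in that order. VRN2, a subunit of a Polycomb complex, fell in all 4 of these comparisons (-0.81 ± 0.19, -0.66 ± 0.19, -0.68 ± 0.19 and -0.61 ± 0.18 in that order, adjusted p from 0.00195 to 0.00947). Its ZT16 calls were lost without natural 2013 ZT16 replicate 3 (adjusted p = 0.0762) and natural 2014 ZT16 replicate 3 (0.0738).

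Genes of later floral organs were mostly too low to test. Of 21 organ markers, 6 were tested, AMS, DYT1, MS1, MYB21, MYB24 and INO, which act in anthers, stamens and ovules, had 0 counts in all libraries, and SUP, SPL/NZZ, DAD1 and STK had 2, 1, 1 and 4 counts over the 24 libraries. The summed level of the list was 10.4 to 15.6 CPM indoors and 9.24 to 13.7 CPM outdoors. Against lab LD, 1 marker was higher and 1 lower in natural 2013 at ZT4, 1 and 0 at ZT16, and 1 and 3 and then 1 and 1 in natural 2014, of 6 tested, beside 29%, 29.1%, 44.3% and 35.8% of all loci called either way. SHP1, a MADS-box gene of carpels and fruits that is close to AG, was the marker that rose each time, by 1.18 ± 0.37 and 1.505 ± 0.38 in 2013 (adjusted p = 0.022 and 0.00479) and 1.62 ± 0.37 and 1.41 ± 0.36 in 2014 (adjusted p = 0.000875 and 0.00378). Its calls of 2013 were lost without natural 2013 ZT4 replicate 1 or 3 or lab LD ZT4 replicate 1 or 2, and without natural 2013 ZT16 replicate 1 (adjusted p from 0.0534 to 0.214), and that at ZT4 also with DESeq2 (0.0773). HEC1, a factor of the female reproductive tract, was lower at ZT4 in 2013 (-2.31 ± 0.70, adjusted p = 0.014, lost without natural 2013 ZT4 replicate 1 or 2, at 0.0538 and 0.0589).

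**Figure D4:**
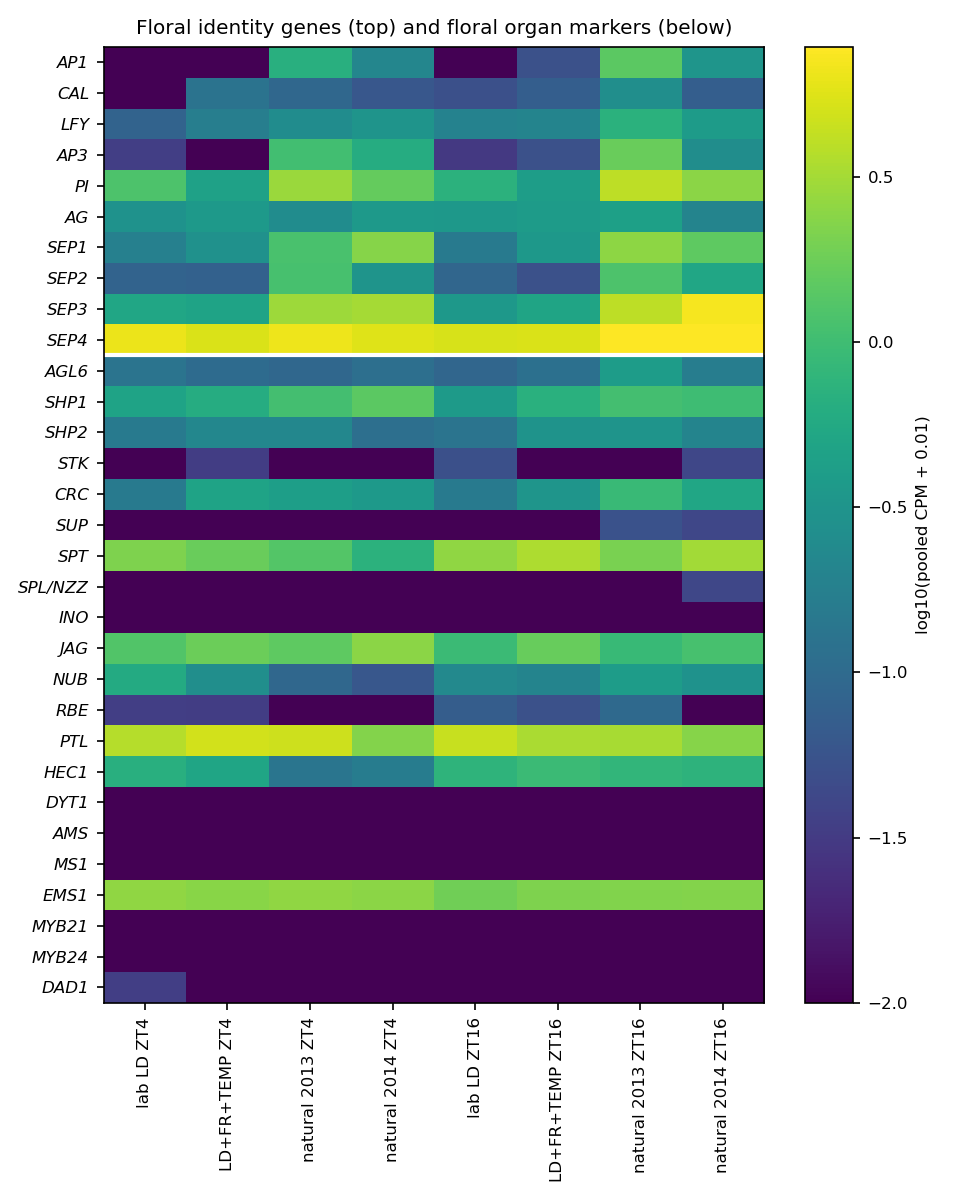
Colour gives log10 of the pooled CPM plus 0.01 for each gene (rows, to be read along a row) in each group (columns), the 10 floral identity genes above the white line and the 21 floral organ markers below it. AP1, AP3, SEP1, SEP2, SEP3 and PI brighten in the outdoor columns, while AMS, DYT1, MS1, MYB21, MYB24 and INO are at 0 throughout.

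Markers of other tissues were summed per library, and such sums follow their most abundant genes. The summed level of 12 shoot apex markers was 77.3 to 108.2 CPM indoors and 77.4 to 107.9 CPM outdoors, with WUS at 6 counts in all. Of the 9 tested, 2 were higher and 0 lower in natural 2013 at ZT4, 4 and 0 at ZT16, and 2 and 1 and then 3 and 1 in natural 2014, beside 29%, 29.1%, 44.3% and 35.8% of all loci called either way. STM was among those higher in all 4 comparisons, and at ZT16 rose by 1.53 ± 0.33 and 1.22 ± 0.32 (adjusted p = 0.000889 and 0.00436), from 2.47 ± 1.58 CPM in lab LD to 7.15 ± 1.45 and 5.80 ± 1.08 CPM. At ZT4 its values were 0.92 ± 0.34 and 1.06 ± 0.35 (adjusted p = 0.0462 and 0.0165), and without natural 2013 ZT4 replicate 3 the former was 0.40 with an adjusted p of 0.485. The ZT4 call of STM in 2013 was also lost with limma-trend, in a fit of those groups alone, without any lab LD ZT4 library and without several libraries outside the comparison (adjusted p from 0.0508 to 0.124). That of 2014 was lost without natural 2014 ZT4 replicate 1 or 3 (0.0556 and 0.0576). The 8 root markers summed to 353 to 491 CPM indoors and 312 to 471 CPM outdoors, with most counts from PYK10 (83521 over the 24 libraries), and the 6 leaf markers to 29192 to 53740 CPM and 35960 to 67317 CPM. The part of tissue make-up in the levels of the floral genes was not tested.

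The loci whose levels ran most like those of each tested gene were found by Pearson's r of log2 CPM over the 24 libraries, which fall into an indoor and an outdoor set, so r mostly follows that split and library depth with it. For AP1 the closest were CYP706A3, a cytochrome P450 gene (r = 0.908), AT5G44630 (0.906) and AT3G28500 (0.874), and AP3 had the same 3 with 0.882 for both AT3G28500 and CYP706A3. CYP706A3 stood at 0.532 ± 0.0558 CPM in lab LD and 3.33 ± 2.44 CPM in natural 2013 at ZT4, and at 0.705 ± 0.0699 and 4.42 ± 0.649 CPM at ZT16. For SEP2 the closest was also CYP706A3 (0.846). SEP3 ran closest to GOX2, a glycolate oxidase gene (0.938), and FHA2 (0.938), and SEP1 to AT4G34400 and AT5G65220 (0.930 each). PI was closest to RR1, a cytokinin response regulator (0.839), and SEP4 had no locus above 0.745, its value with AT5G53330. Over the same 24 libraries, FT had r of 0.724 with SEP1, 0.619 with SEP3, 0.5875 with AP3 and 0.531 with SEP2. Its r was 0.518 with AP1, 0.440 with PI and 0.0973 with SEP4. SOC1 had r of 0.846 with SEP1, 0.814 with SEP3, 0.784 with PI and 0.7395 with AP1. With AP3, SEP2 and SEP4, SOC1 had 0.734, 0.703 and 0.629. For TSF, r was lowest with SEP3 (0.118) and highest with AP3 (0.316). The split between indoors and outdoors bears on these values as well. Within the 12 outdoor libraries, AP1 ran with PI (r = 0.771), SEP2 (0.771) and AP3 (0.705), while SEP3 had r = 0.0748 with AP1 and -0.121 with AP3. These are descriptions of libraries that share groups and depth.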

How the data were processed

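Polyadenylated RNA from 24 whole-seedling samples was sequenced as 3′ digital gene expression libraries. TAIR10 is the build, and Bowtie2, edgeR, Trimmomatic 0.36 and bcl2fastq 2.17.1.14 are the tools, that the submitters' processing notes list. How reads were counted, on which strand, and what was done with multiple matches is not given in the sources used here. Read counts as deposited are whole numbers, for 48359 transcript models of 27655 loci. The deposited normalized table of 26793 models holds signal values that equal the counts times 1 factor per library, and was used for that check alone; 0 columns were left unused. Counts were summed per locus.

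The main test was the quasi-likelihood test of edgeR 4.0.16 under R 4.3.3 (filterByExpr with the groups, minimum count 10 and minimum total 15; TMM; quasi-likelihood fit with 8 group means over all 24 libraries, 16 residual degrees of freedom, no block), in 17 contrasts with a threshold of 0.05. The SE is the size of the log2 fold change over the square root of F. The common dispersion was 0.0143. The steps were tested on simulated data. Where a compared group held 0 to 3 counts, no fitted fold is printed: a group at 0 was set to a floor of 3 counts over the group, and other ratios carry 95% exact conditional intervals. Log2 CPM for likeness used a prior count of 2, and the 3 loci with the highest r were taken per gene. Alternatives were RLE size factors, DESeq2 1.42.0, limma-trend (limma 3.58.1), no filter, the compared groups alone, libraries thinned to 6543615 counts, a replicate block and 24 fits that each leave out 1 library. The 10 genes and 7 lists (upstream integrators, meristem partners, repressors and chromatin factors, floral organ, shoot apex, root and leaf markers) were chosen with earlier results of these data known; 87 of 88 list members matched by name. From each list and comparison, at most 2 higher and 2 lower genes with the smallest adjusted p were open to naming, plus FT and SOC1; VRN2 in all 4 outdoor comparisons, AT5G15790, STM as the apex marker of 1 library, and UFO and WUS, named with their counts, were added after their values were seen.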

Additional observations from a re-analysis of the deposited data

Results flagged for a closer look

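The level of AP3 at ZT16 differed between the outdoor years, by a test of the difference itself (log2 fold change of natural 2014 against natural 2013 of -2.68 ± 0.75, adjusted p = 0.0378 with edgeR). The 3 libraries of 2013 held 8, 17 and 14 counts and those of 2014 held 1, 1 and 6, and DESeq2 gave no adjusted p for it.

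The change of SEP3 from ZT4 to ZT16 differed between natural 2014 and lab LD in the interaction test (1.73 ± 0.62, adjusted p = 0.0353). It was lost without replicate 1 or 2 of natural 2014 or lab LD at ZT4, or replicate 1 or 3 of either at ZT16 (adjusted p from 0.0503 to 0.174).

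The same interaction for SEP4 was 0.78 ± 0.28 (adjusted p = 0.0389). SEP4 stood at 6.61 ± 1.84 and 5.24 ± 0.877 CPM in lab LD and at 5.53 ± 1.00 and 7.65 ± 1.31 CPM in natural 2014 (ZT4 and ZT16, SD, n = 3), and the call was lost with DESeq2 (adjusted p = 0.0609), in a fit of these groups alone (0.0876), in thinned libraries (0.191) and without replicate 1 or 3 of natural 2014 at either time, replicate 2 or 3 of lab LD at ZT4 or replicate 1 or 3 of lab LD at ZT16 (from 0.053 to 0.130).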

How the results depend on the processing

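No log2 fold change that passed in the main or alternative fit changed sign under any alternative. Of the recomputed log2 fold changes, 9361 kept their side of the threshold, 495 lost it and 19 gained it. Genes other than the 7 tested ones entered only where the main fit called them, so they could lose a call but not gain one. Fits in which a gene went untested are not in these numbers. The number of the 10 genes called moved by over 1.5 times as follows. DESeq2 gave 1 in place of 0 in LD+FR+TEMP against lab LD at ZT4, 0 in place of 1 between the years at ZT16 (where it gave AP3 no adjusted p) and from ZT4 to ZT16 in natural 2013, and 1 in place of 2 in the interaction of natural 2014. Limma-trend gave 1 in place of 0 between the years at ZT4. Fits of the compared groups alone gave 1 in place of 0 in LD+FR+TEMP against lab LD at ZT4, 2 in place of 6 in natural 2013 against lab LD at ZT4, 3 in place of 6 outdoors against LD+FR+TEMP at ZT4 and in natural 2014 against lab LD at ZT16, 3 in place of 1 between the years at ZT16, and 1 in place of 2 in the interaction of natural 2014. Thinned libraries gave 3 in place of 6 in natural 2014 against lab LD at ZT16, 4 in place of 7 outdoors against LD+FR+TEMP at ZT16, 0 in place of 1 between the years at ZT16 and over the day in natural 2013, and 1 in place of 2 in the interaction of natural 2014. The filter on low counts was applied anew in fits of the compared groups alone, in thinned libraries and in fits that leave out 1 library. The set of loci tested, and with it the adjustment of p-values, can differ there. A sparse gene may thus have gone untested in some of these fits rather than lost its call, and the cause was not tested further.

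Leaving out 1 library at a time, the counts ran from 2 to 6 in natural 2013 against lab LD at ZT4 and in natural 2014 at ZT16, 6 to 7 in natural 2013 at ZT16, 3 to 4 in natural 2014 at ZT4, 4 to 6 and 5 to 7 outdoors against LD+FR+TEMP at ZT4 and ZT16, 0 to 1 in LD+FR+TEMP against lab LD at ZT4, between the years at either time, over the day in lab LD and in the interaction of natural 2013, 0 to 3 and 1 to 2 over the day in natural 2013 and 2014, 0 to 2 in the interaction of natural 2014, and stayed at 0 elsewhere.

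Samples with the same replicate number did not deviate together (84 pairs, r from -0.244 to 0.210, median -0.0178, 5 pairs over 0.1), so the numbers do not pair them. With the replicate block, 5 in place of 6 genes were called in natural 2014 against lab LD at ZT16, where SEP2 had an adjusted p of 0.0589, and the counts were the same in the other 16 contrasts. Over all loci, calls in LD+FR+TEMP against lab LD were 3184 at ZT4 and 1838 with those groups alone, and 499 at ZT16, 243 with limma-trend, 281 in thinned libraries and 66 to 1209 with a library left out. Between the years at ZT16 they were 969, 1485 with those groups alone and as few as 339 with a library left out, and in the interaction of LD+FR+TEMP 797, 504 in thinned libraries and as few as 501 with a library left out. Depth limits AP1, AP3, SEP1, SEP2, CAL, LFY and AG most, each of which held few counts in its lowest group.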
